A study of Mus musculus with 10 samples.

Results

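Mitochondrial biogenesis regulators are the nuclear genes whose products switch on the building of mitochondria. Here they were 10 genes of 24537 in a count table of mouse heart RNA, taken by symbol. They were the 3 PGC-1 coactivators (Ppargc1a, Ppargc1b and Pprc1), the nuclear respiratory factors NRF-1 (Nrf1) and NRF-2 (its DNA-binding subunit, Gabpa), the 3 estrogen-related receptors (Esrra, Esrrb and Esrrg), and 2 proteins that transcribe mitochondrial DNA (Tfam and Polrmt). Hearts came from 5 control and 5 iSOD2 mice, all 6 weeks old. Every mouse carried 1 copy of a reverse tetracycline transactivator at the Rosa26 locus, and the iSOD2 mice (Rosa26-rtTA2+/-;TRE-SOD2-shRNA+/-) also carried 1 copy of a tetracycline-responsive short hairpin RNA against Sod2. Controls (Rosa26-rtTA2+/-;TRE-SOD2-shRNA-/-) had no hairpin. The dams of both genotypes ate doxycycline chow from early pregnancy until birth, so control hearts had been exposed to the drug as well, and the hairpin was on in embryos and off afterwards. The transactivator is expressed in many cell types, so the embryonic knockdown was not limited to the heart. There were 3 male and 2 female controls against 2 male and 3 female iSOD2 mice. Litter A gave 2 mice to each genotype and litter B gave 3.

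PGC-1 coactivators do not bind DNA themselves. They are recruited by factors such as NRF-1, NRF-2 and the estrogen-related receptors, which sit at the promoters of nuclear genes for respiratory chain subunits, mitochondrial import and the mitochondrial transcription machinery. TFAM and the polymerase POLRMT then act inside the organelle, on mitochondrial DNA. In the heart, PGC-1α and PGC-1β overlap in function, and ERRα and ERRγ share many binding sites at genes of fatty acid oxidation and oxidative phosphorylation. The NRF-2 of this circuit is the Ets-family factor GABP and not NFE2L2, the antioxidant factor that has the same short name, and the NRF-1 is Nrf1 and not Nfe2l1.

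Some members carry the recognition letters of other members near their own start sites, and the windows that hold them are shown because they link genes whose transcripts were measured separately. RefSeq promoter windows (GRCm38.p6, the same build as mm10, 250 bases before to 50 after a start site) were found for 9 of the 10 members and searched on both strands. In each line 30 bases are printed 5′ to 3′ on the strand of the gene, with the motif in capitals.
Tfam, Ets motif: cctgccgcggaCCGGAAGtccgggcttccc
Polrmt, Ets motif: ccctaagagcgCTTCCGGcagtcgcagaac
Gabpa, Ets motif: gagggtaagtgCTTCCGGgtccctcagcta
Polrmt, NRF-1 motif: agagtatttctGCGCATGCtctcttgccgc
Esrra, NRF-1 motif: ccccctgttttGCATGCGCaggccggcccc
The Ets motif searched was CCGGAAG, printed above as its reverse complement where it lay on the other strand, and 8.86% of all 32851 RefSeq windows of this length held it. The NRF-1 motif was GCATGCGC, held by 2.71% of windows. The receptor motif AAGGTCA was in 4.72% of windows and in none of the 14 windows of the 9 members. The Tfam window is chr10:71238073-71238102 on the minus strand, and its motif lies at bases -47 to -41 from the start site. The Ets window of Polrmt is chr10:79746606-79746635, with the motif at -43 to -37, and its NRF-1 window is chr10:79746696-79746725, with the motif at -133 to -126, both on the minus strand. The Gabpa window, chr16:84835020-84835049 on the plus strand, has its motif at -93 to -87. The Esrra window, chr19:6921824-6921853 on the minus strand, has it at -34 to -27. A match is only a match of letters. No binding of any factor was measured in these hearts.

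Values below are read counts over the exons of 1 transcript per gene, divided by a size factor for each library (normalized counts). Libraries held between 16448100 and 24263100 counts in all, and each library was a separate mouse. In Sod2, the targeted gene, the 2 genotypes differed by less than the spread between mice at 6 weeks, long after the hairpin was switched off (controls 10573 ± 588 and iSOD2 10781 ± 449 normalized counts, SD, n = 5 each, DESeq2 adjusted p = 0.806 after Benjamini-Hochberg adjustment). Summed ventricular cardiomyocyte markers were nearly equal, at 82052 to 90570 CPM (counts scaled to 1 fixed library total) in controls and 78372 to 89166 CPM in iSOD2 hearts. The hepatocyte markers were not. All 8 of them were higher in iSOD2 hearts, none was at 0 in any library, and their sum ran from 47.2 to 584 CPM in controls and from 288 to 1199 CPM in iSOD2 hearts (exact permutation test of the log2 sums, two-sided, p = 0.0714). The mean of their log2 normalized counts differed by 1.79 (exact permutation p = 0.0317). All 4 atrial cardiomyocyte markers found were higher too, with 7 values at 0. Their sum ran from 25.1 to 100 CPM in controls and from 30.6 to 374 CPM in iSOD2 hearts (exact permutation test of the log2 sums, p = 0.127). Of the 6 erythroid markers 0 were higher in iSOD2 hearts (exact permutation test of the log2 sums, p = 0.230). The summed brown adipocyte markers, mostly Cox8b, which heart muscle also expresses, ran from 296 to 356 CPM in controls and from 362 to 409 CPM in iSOD2 hearts (exact permutation p = 0.00794), while 2 of the 5 were higher, Ucp1 and Elovl3 were at or near 0, and the mean of their log2 counts differed by -0.16 (exact permutation p = 0.381). The part of any of these markers in the differences below was not tested. In pieces of whole heart, fewer cells of one type and less RNA per cell cannot be told apart.

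In these hearts the regulators differed widely in level. Counts were set per kilobase of exon, since genes can be compared only per length. Esrra was the highest, at 840 ± 55.9 normalized counts per kb (SD over all 10 mice), above 93.3% of the genes tested. Ppargc1a followed at 552 ± 62.3 and Ppargc1b at 458 ± 75.3. These coactivators exceeded 89.5% and 87.4% of the genes tested, and Ppargc1a was above Ppargc1b in 8 of 10 mice. Gabpa, at 320 ± 12.3, lay below Ppargc1b in every mouse and above the next gene in every mouse.

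Esrrg, Polrmt, Tfam and Esrrb formed a middle group whose neighbours overlapped. Esrrg was at 185 ± 23.0, Polrmt at 181 ± 11.9, Tfam at 164 ± 11.5 and Esrrb at 140 ± 15.3 normalized counts per kb. Esrrg exceeded Polrmt in 7 mice, Polrmt exceeded Tfam in 8, and Tfam exceeded Esrrb in 8, so these neighbours did not separate beyond the spread between mice. Nrf1 came next at 110 ± 6.03, below Esrrb in all 10 mice although the ranges met. Pprc1 was the lowest at 70.7 ± 12.95, near the median of 78.7 over all genes tested, and Esrra was 11.9-fold above it. The order was the same in controls and under another scaling (TMM), while in iSOD2 hearts Polrmt preceded Esrrg.

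**Figure D1:**
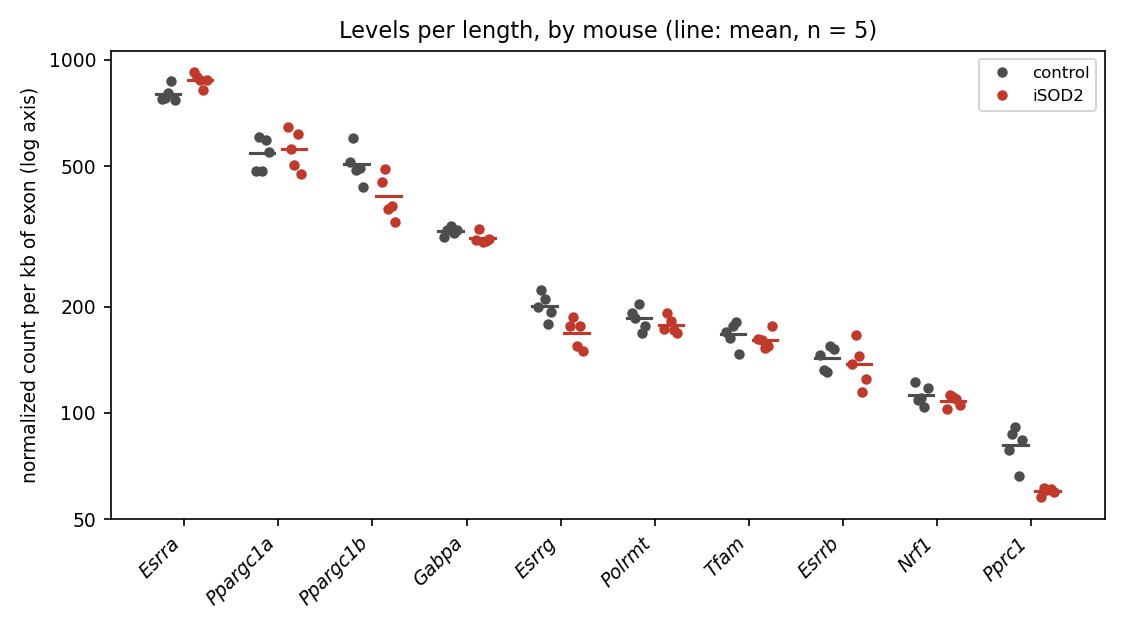
Normalized count per kb of exon (vertical axis, log scale) of the 10 regulators, in order of their mean level; each point is 1 mouse, grey for control and red for iSOD2, and the line is the mean of 5 mice. Esrra lies above the other members in every mouse, neighbours from Esrrg to Esrrb overlap, and the iSOD2 points of Pprc1 lie together below its controls.

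Whether embryonic loss of SOD2 left a mark on these regulators was asked by comparing iSOD2 with control hearts. A gene was called when its adjusted p was at most 0.05 and its log2 fold change above 0.25 in size, and 2 of the 10 members were called, Pprc1 and Esrrg, both lower in iSOD2 hearts. Among all 9489 genes with an adjusted p, 2.96% were called and 1.7% were called lower. Ppargc1a, the member best known for driving biogenesis, was not called and had nearly equal means. Tfam and Polrmt, at the end of the circuit, were not called either. Of the 10 members 8 had a negative and 2 a positive fold change, with a median log2 fold change of -0.06, against -0.0016 over all genes tested. At an unadjusted p under 0.05 there were 4 members (Ppargc1b, Pprc1, Esrra and Esrrg), against 13.2% of all genes. By edgeR's quasi-likelihood test no gene of 17746 passed, the lowest adjusted p being 0.0662, while 2723 genes and 4 members had an unadjusted p under 0.05.

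**Figure D2:**
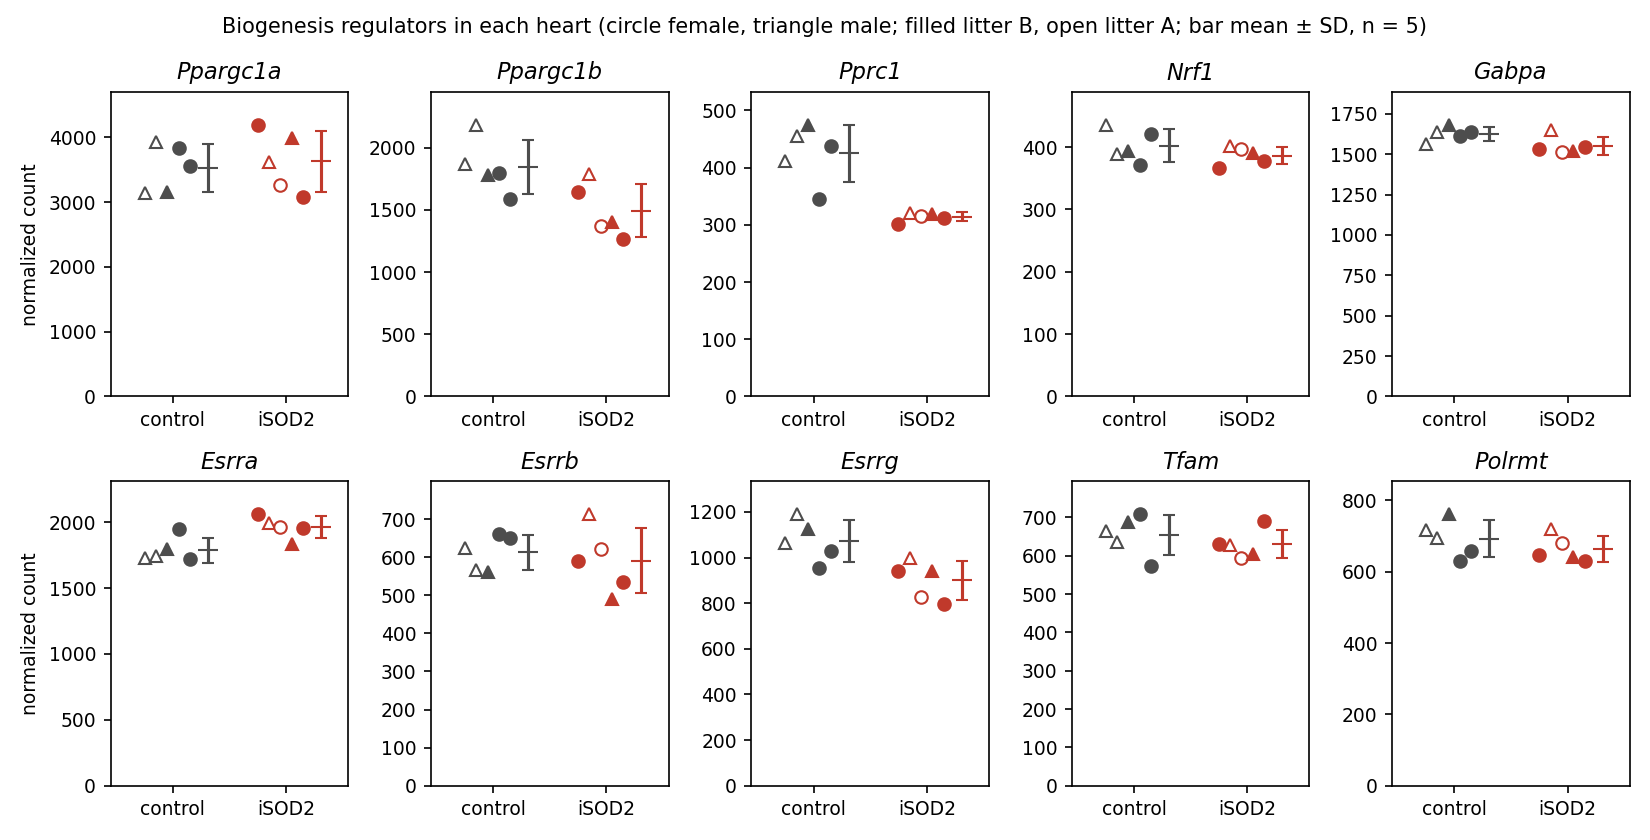
Normalized counts (vertical axes, each from 0) of the 10 regulators in control (grey) and iSOD2 (red) hearts; circles are females, triangles males, open symbols litter A and filled symbols litter B, and the bar is mean ± SD of 5 mice. Pprc1 is the one member in which the genotypes do not overlap.

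Pprc1 encodes PRC, the PGC-1-related coactivator, which works with NRF-1 and is known as a gene that responds early to serum. Its kept transcript (NM_001081214) lies on the plus strand at chr19:46056539-46072909 and has 5228 bases of exon. Control hearts held 411, 456, 475, 346 and 437 normalized counts of Pprc1 (controls 1, 2, 3, 4 and 6). In iSOD2 hearts it had 301, 321, 316, 319 and 312 (iSOD2 5, 7, 8, 9 and 10). Every iSOD2 heart was below every control, the nearest control being control 4. Of all genes with an adjusted p, 5.7% separated the genotypes fully, in either direction. Pprc1 fell by 0.43 on the log2 scale (SE 0.09, DESeq2 adjusted p = 0.000434 after Benjamini-Hochberg adjustment), from 425 ± 50.2 to 314 ± 7.74 (SD, n = 5 each), or 0.740 of the control level. The exact permutation test gave p = 0.00794, the smallest that groups of 5 allow. edgeR gave the same log2 fold change of -0.44 with an adjusted p of 0.0662.

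The iSOD2 hearts were close to each other in Pprc1. Their SD of 7.74 was below the 17.2 that counting alone gives at this depth, whereas the control SD of 50.2 was above its counting value of 21.4. Nrf1 too had an iSOD2 SD (14.3) below its counting value (19.0). Within litter A the log2 fold change of Pprc1 was -0.44 and within litter B -0.43, and it was -0.48 in males and -0.34 in females. No adjusted p reached the threshold inside a litter or a sex, where DESeq2 gave 0.172 in litter B and 0.867 in females and no adjusted value in the other strata. Pprc1 was called without each mouse in turn, 10 times of 10.

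Ppargc1b encodes PGC-1β, a coactivator of the estrogen-related receptors with a strong hold on basal mitochondrial content. Its kept transcript (NM_133249) has 3642 bases of exon and lies on the minus strand of chromosome 18. Controls had 1868, 2187, 1778, 1796 and 1588 normalized counts of Ppargc1b. iSOD2 hearts had 1642, 1786, 1375, 1406 and 1264. The iSOD2 hearts 8, 9 and 10 lay below all controls, and iSOD2 5 and iSOD2 7 lay inside the control range. The log2 fold change of Ppargc1b was -0.30 (SE 0.10, 95% interval -0.51 to -0.10), with a DESeq2 adjusted p of 0.0540 (Benjamini-Hochberg), just outside the threshold, and an exact permutation p of 0.0476. It was -0.36 in litter A and -0.26 in litter B. Without iSOD2 5, control 6 or iSOD2 7, each left out alone, Ppargc1b was called, with DESeq2 adjusted p-values of 0.0441, 0.0265 and 0.00939. It was also called with litter as a covariate (log2 fold change -0.30, DESeq2 adjusted p = 0.0188), with sex and litter together (0.0327), under TMM scaling (0.0474) and with genes averaging under 50 counts left out (0.0482). With sex alone as a covariate Ppargc1b was not called (log2 fold change -0.265, DESeq2 adjusted p = 0.0906), nor by edgeR (adjusted p = 0.167). Without any 1 of the other 7 mice it was not called either, with DESeq2 adjusted p up to 0.190.

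Ppargc1a encodes PGC-1α, the inducible coactivator that answers to exercise, cold and fasting. Its kept transcript (NR_027710) lies on the minus strand at chr5:51454249-51553921 and has 6482 bases of exon, and its start is 13804 bases from the RefSeq start site of the searched window. Controls had 3138, 3932, 3148, 3832 and 3562 normalized counts of Ppargc1a. iSOD2 hearts had 4195, 3620, 3266, 3988 and 3076. The highest and the lowest heart were both iSOD2, and the genotypes overlapped over nearly their whole ranges. The log2 fold change of Ppargc1a was 0.04 (SE 0.10, 95% interval -0.14 to 0.23), with a DESeq2 adjusted p of 0.851. Without iSOD2 5 alone it was -0.01.

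The 2 main coactivators therefore stood in a different proportion in the genotypes. The count of Ppargc1b was 0.595, 0.556, 0.565, 0.469 and 0.446 of that of Ppargc1a in controls. In iSOD2 hearts it was 0.392, 0.493, 0.421, 0.353 and 0.411. All iSOD2 hearts but iSOD2 7 were below every control. On the log2 scale the control ratio was -0.94 ± 0.18 and the iSOD2 ratio -1.28 ± 0.18 (SD, n = 5 each), a difference of -0.35 (exact permutation test, two-sided, p = 0.0238). With mice exchanged only inside their litter (120 arrangements) the exact permutation p was 0.0167, and inside their sex (100 arrangements) 0.01. Each is the smallest that its arrangements allow, so the lower values do not measure a gain over 0.0238. Of the summed level per kb of the 3 coactivators, Ppargc1a made up 48.1% ± 3.12 in controls and 54.3% ± 2.86 in iSOD2 hearts, Ppargc1b 44.7% ± 2.82 and 39.8% ± 2.83, and Pprc1 7.23% ± 1.06 and 5.89% ± 0.709.

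Nrf1 and Gabpa, the DNA-binding factors through which the coactivators reach the respiratory chain genes, were not called. Nrf1 (NM_001164226, chr6:30047988-30153458, plus strand, 3573 bases of exon) had 436, 389, 394, 370 and 421 normalized counts in controls. It had 366, 401, 397, 390 and 377 in iSOD2 hearts. All iSOD2 hearts but iSOD2 5 lay inside the control range. The log2 fold change of Nrf1 was -0.06 (SE 0.07, DESeq2 adjusted p = 0.701), and its 95% interval, -0.20 to 0.08, lay inside the 0.25 needed for a call.

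Gabpa (NM_008065, chr16:84835124-84863778, plus strand, 4974 bases of exon) was the steadiest member, with a coefficient of variation of 3.84% over the 10 hearts. Controls had 1565, 1635, 1683, 1612 and 1639 normalized counts of Gabpa. iSOD2 hearts had 1533, 1649, 1513, 1521 and 1546. All iSOD2 hearts but iSOD2 7 were below every control, by a small amount. Gabpa had a log2 fold change of -0.07 (SE 0.05, 95% interval -0.16 to 0.02), with a DESeq2 adjusted p of 0.424. Exons of Atp5j on the opposite strand cover 298 of the 5587 annotated exon bases of all Gabpa transcripts (5.33%), a wider set than the counted 4974. Whether the counting separated the strands is not given in the sources used here, so the Gabpa count may include reads of that stretch.

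Of the 3 estrogen-related receptors 1 was called. Esrrg encodes ERRγ, a driver of oxidative metabolism in the postnatal heart (NM_001243792, chr1:187609006-188214884, plus strand, 5344 bases of exon). Controls had 1064, 1191, 1123, 952 and 1030 normalized counts of Esrrg. iSOD2 hearts had 941, 999, 825, 942 and 797. All iSOD2 hearts but iSOD2 7 lay below every control. Esrrg fell by 0.25 on the log2 scale, from 1072 ± 90.9 to 901 ± 85.5 (SD, n = 5 each), with an SE of 0.08 and a DESeq2 adjusted p of 0.0403 (Benjamini-Hochberg), hardly past both thresholds.

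The Esrrg call was easily lost. It was kept without control 4, iSOD2 7 or iSOD2 9 and lost without each of the other 7 mice, where the log2 fold change stayed negative, from -0.27 to -0.21. With sex as a covariate the log2 fold change of Esrrg was -0.21, past the p threshold (DESeq2 adjusted p = 0.0442) but under the fold minimum, and with litter as a covariate it was -0.249 (0.0305), again under the minimum. Among the members Esrrg had the largest difference between the sexes, given below, at -0.183 for females over males, with Ppargc1b close to it at -0.181. The iSOD2 group held 1 more female than the controls. Within males alone the log2 fold change of Esrrg was -0.214 and within females alone -0.215, with no call in either. With sex and litter as covariates it was -0.213 (DESeq2 adjusted p = 0.0559). Apart from these fits and the interaction given below, the part of sex in the Esrrg difference was not tested.

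Esrra encodes ERRα, the receptor that PGC-1α induces and works with at oxidative genes (NM_007953, chr19:6910977-6921808, minus strand, 2233 bases of exon). Controls had 1728, 1745, 1794, 1952 and 1719 normalized counts of Esrra. iSOD2 hearts had 2064, 1992, 1964, 1837 and 1955. Control 4 stood with the iSOD2 hearts and iSOD2 9 between control 4 and the other controls. Esrra had a log2 fold change of 0.13 (SE 0.05, 95% interval 0.03 to 0.24), with an exact permutation p of 0.0159 and a DESeq2 adjusted p of 0.107. Exons of Trmt112 on the opposite strand cover 73 of the 4382 annotated exon bases of all Esrra transcripts (1.67%), a wider set than the counted 2233.

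Esrrb, the receptor best known from pluripotent cells (NM_001159500, chr12:86361117-86521628, plus strand, 4291 bases of exon), was also measured in every heart. Controls had 624, 567, 562, 662 and 651 normalized counts of Esrrb, and iSOD2 hearts had 591, 714, 621, 491 and 535. The iSOD2 hearts reached beyond the controls at both ends. For Esrrb the log2 fold change was -0.06 (SE 0.10, 95% interval -0.25 to 0.14), with a DESeq2 adjusted p of 0.802, and it was 0.16 in litter A and -0.21 in litter B. Of the summed level per kb of the 3 receptors, Esrra made up 69.9% ± 1.5 in controls and 74.2% ± 1.65 in iSOD2 hearts, and Esrrg 17.6% ± 1.79 and 14.2% ± 1.22. These shares describe how the receptors were balanced and were not tested.

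Tfam encodes the factor that packages mitochondrial DNA and opens its promoters (NM_009360, chr10:71225477-71238044, minus strand, 3909 bases of exon). Controls had 664, 635, 688, 709 and 573 normalized counts of Tfam, and iSOD2 hearts had 632, 629, 595, 606 and 690. All iSOD2 hearts lay inside the control range. Tfam had a log2 fold change of -0.05 (SE 0.07, 95% interval -0.20 to 0.09), with a DESeq2 adjusted p of 0.742.

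Polrmt encodes the RNA polymerase of mitochondria, which TFAM recruits (NM_172551, chr10:79736125-79746581, minus strand, 3739 bases of exon). Controls had 718, 695, 762, 630 and 658 normalized counts of Polrmt, and iSOD2 hearts had 647, 719, 681, 643 and 630. The genotypes overlapped over most of their ranges. For Polrmt the log2 fold change was -0.06 (SE 0.07, 95% interval -0.20 to 0.08), with a DESeq2 adjusted p of 0.681. Transcripts of mitochondrial DNA itself were not analysed here, so the output of TFAM and POLRMT was not measured.

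For 6 of the 10 members the 95% interval lay wholly inside a log2 fold change of 0.25 in either direction. These were Ppargc1a, Nrf1, Gabpa, Esrra, Tfam and Polrmt, in which a change past the fold minimum lay outside the interval of this fit. For Ppargc1a this held only before removal of the exon length trend, described below. After removal its log2 fold change was 0.12 (SE 0.09), with an upper limit past 0.25. Before removal the interval of Esrrb ended at -0.25, and Ppargc1b, Pprc1 and Esrrg had intervals that reached past the minimum on the lower side.

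Fold changes between these genotypes followed the length of the transcript, which bears on long genes such as these. The 12151 genes whose normalized counts averaged at least 50 were split by exon length into 5 equal classes. The shortest class (53 to 1677 bp) had a median log2 fold change of 0.11 and the longest (4936 to 101359 bp) had -0.08. Of the members 5 fell in class 4 and 4 in class 5, and Esrra, the shortest, in class 2. With a smooth trend on exon length removed from each library, the log2 fold change of Pprc1 was -0.37 and it was still called (DESeq2 adjusted p = 0.00319). Esrrg was not, at -0.19 with a DESeq2 adjusted p of 0.227. Ppargc1b moved little, to -0.28, with a DESeq2 adjusted p of 0.163, while Esrra came to 0.09 and Ppargc1a to 0.12. The median over the members was then -0.03, and the log2 difference of the ratio of Ppargc1b to Ppargc1a was -0.40. What set the length trend was not tested.

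**Figure D3:**
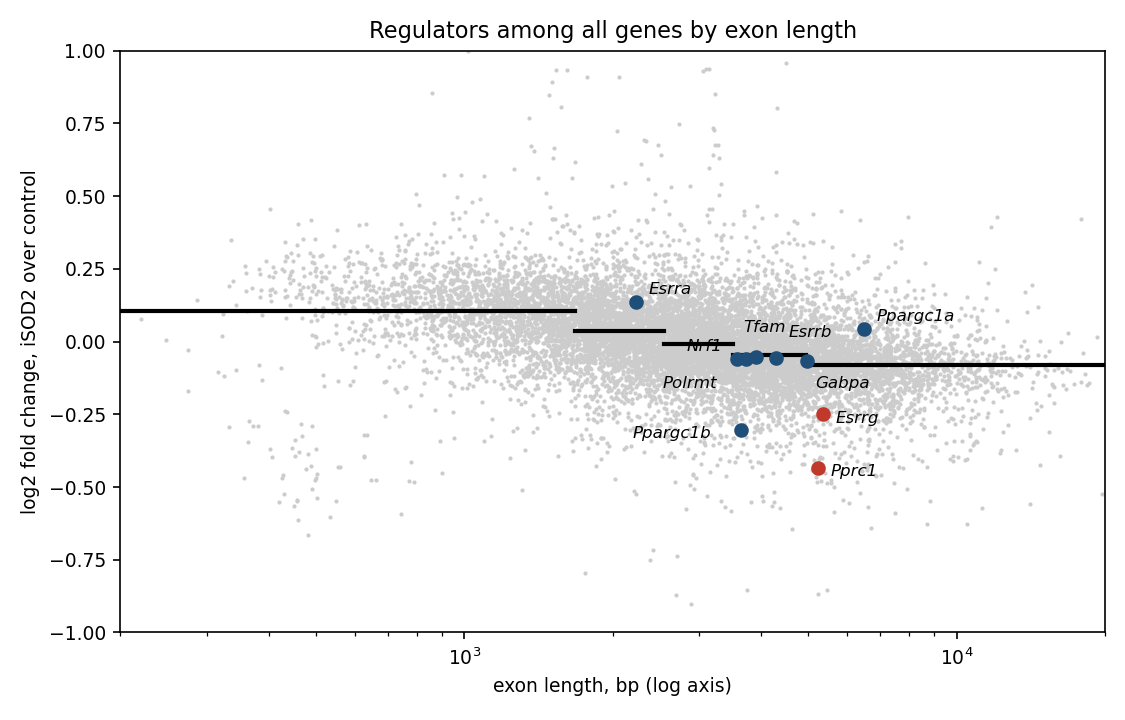
Log2 fold change of iSOD2 over control against exon length (log axis) for genes averaging at least 50 normalized counts; grey points are 12042 genes inside the plotted range, black lines the median of each length class, and coloured points the 10 regulators, red where called. Pprc1, Esrrg and Ppargc1b lie well below the line of their length class, and Nrf1, Polrmt, Tfam, Esrrb and Gabpa lie close to it.

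**Figure D4:**
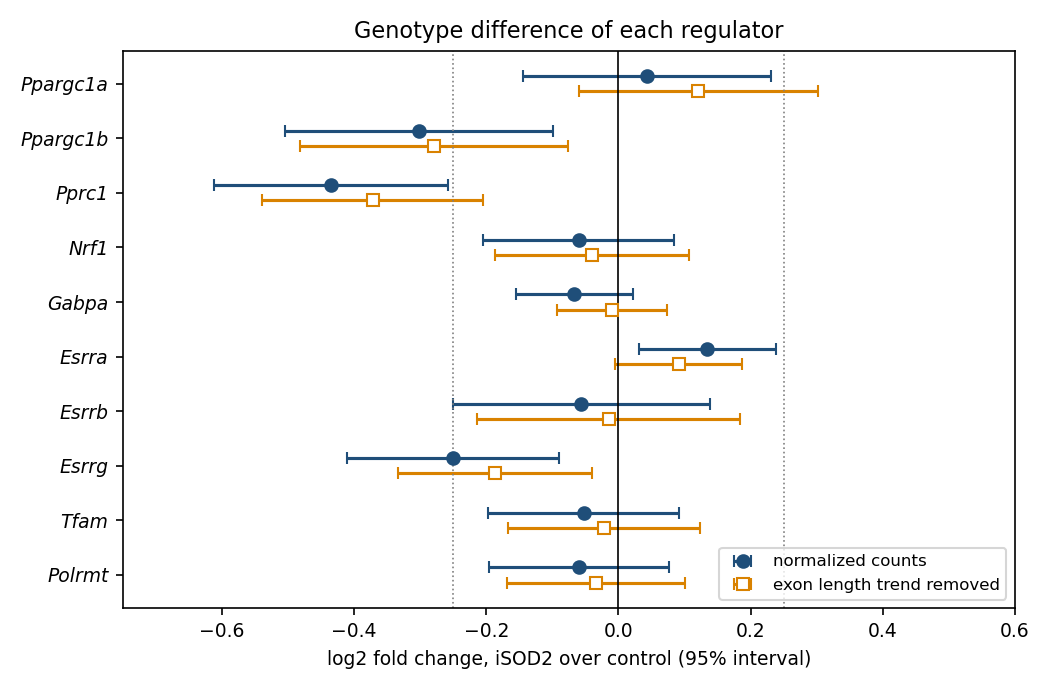
Log2 fold change of iSOD2 over control with its 95% interval for each regulator, from normalized counts (blue circles) and after removal of the exon length trend (orange squares); dotted lines mark the fold minimum of 0.25. The whole interval of Pprc1 lies below -0.25 before removal, and its interval stays below 0 after it.

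Sex and litter were compared across the same mice, with genotype as a covariate. Between females and males 0 of 10 members were called by DESeq2, against 0.483% of all genes, with edgeR calling 0 members too. Log2 fold changes of females over males ran from -0.18 to 0.06, and 1 member had an unadjusted p under 0.05, against 6.62% of all genes. That member was Esrrg, lower in females by a log2 fold change of -0.18 (DESeq2 adjusted p = 0.329). Between litter B and litter A 0 of 10 members were called by DESeq2 or edgeR, against 3.5% of all genes by DESeq2. There 1 member had an unadjusted p under 0.05, against 12.95% of all genes, and it was Ppargc1b with a log2 fold change of -0.19 (DESeq2 adjusted p = 0.313). Each of these fits left out the other factor, and sex and litter overlapped, both litter A controls being male. Ppargc1b also differed by -0.181 between the sexes (DESeq2 unadjusted p = 0.0570), so its difference cannot be assigned to litter or to sex.

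Whether the genotype difference depended on sex was tested with an interaction term. By DESeq2 0 of 10 members passed, as did 0% of the 17743 genes tested, and edgeR passed 0 genes as well. At an unadjusted p under 0.05 there were 209 genes by DESeq2 and no member. Interaction estimates of the members ran from -0.23 (Ppargc1a) to 0.14 (Pprc1) on the log2 scale, and the 95% interval for Pprc1, -0.25 to 0.54, was wide enough to hold a sex difference of the size of the genotype difference itself.

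Genes around the circuit were counted on 4 lists. Of 30 upstream regulators of PGC-1, the kinases, deacetylases and MEF2, CREB and FOXO factors that set its level or activity, 10 had a positive and 20 a negative fold change, with a median log2 of -0.05. At an unadjusted p under 0.05 there were 8 lower and 1 higher, against 13.2% of all genes in either direction. With the length trend removed the median log2 fold change of this list was -0.01. Of the 28 with an adjusted p, 1 was called, against 2.96% of all genes. It was Mef2d, a transcription factor of the Ppargc1a promoter, which fell by 0.26 on the log2 scale (2904 ± 277 to 2430 ± 235 normalized counts, SD, n = 5 each, DESeq2 adjusted p = 0.0340). The call was kept in 3 of 10 fits without 1 mouse, with adjusted p up to 0.184, and lost within each litter and each sex. Ppargc1a itself, as given above, had a log2 fold change of 0.04 in the same hearts.

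Of 26 nuclear partners and corepressors 4 had a positive and 22 a negative fold change, with a median log2 of -0.05. At an unadjusted p under 0.05 there were 5 lower and 1 higher, against 13.2% of all genes in either direction. With the length trend removed the median log2 fold change of these partners was -0.008. Among those called lower was Hcfc1. HCF-1, the product of Hcfc1, binds both GABP and the PGC-1 coactivators, and its genotypes did not overlap (2338 ± 166 to 1934 ± 160 normalized counts, SD, n = 5 each, log2 fold change -0.27, DESeq2 adjusted p = 0.00627). Without control 3, iSOD2 9 or iSOD2 10 the Hcfc1 call was lost, at log2 fold changes of -0.242, -0.245 and -0.240. Hcfc1 was called in males alone (DESeq2 adjusted p = 0.0190) but not in litter A (0.137), litter B (0.232) or females. Pprc1 and Hcfc1 were thus both lower in every iSOD2 heart than in any control.

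Of 26 genes tested for transcription, replication and upkeep of mitochondrial DNA besides Tfam and Polrmt, 19 had a DESeq2 adjusted p and 0 of them were called, and edgeR called no gene of the whole table. At an unadjusted p under 0.05 there was 1, Ssbp1, the single-strand binding protein of mitochondrial DNA, with a log2 fold change of 0.25 (DESeq2 adjusted p = 0.117). Next in order of p were Lrpprc at -0.14 and Slirp at 0.17, partners that stabilize mitochondrial messenger RNA (DESeq2 adjusted p = 0.262 and 0.263). The median log2 fold change of this list was -0.02, near that of Tfam and Polrmt.

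The 37 target genes of the receptors and of NRF-1 and NRF-2 had mostly positive fold changes. Of these 27 had a positive and 10 a negative fold change, with a median log2 of 0.07, and 15 had an unadjusted p under 0.05, all of them higher. Over all 17746 genes tested 8801 fold changes were positive and 8945 negative, and 1292 were higher at an unadjusted p under 0.05. Of the targets 2 were called, against 2.96% of all genes. Called higher were Cox17, the copper chaperone of cytochrome c oxidase, whose genotypes did not overlap (670 ± 60.8 to 851 ± 38.5 normalized counts, SD, n = 5 each, log2 fold change 0.34, DESeq2 adjusted p = 0.000456), and Mb, the myoglobin gene (log2 fold change 0.26, DESeq2 adjusted p = 0.0154). The Mb call was lost without control 1, 2, 3 or 6 or iSOD2 5, where the adjusted p reached 0.0872 or the log2 fold change came under the minimum, down to 0.21. Within single litters and sexes Cox17 was not called (DESeq2 adjusted p from 0.0818 to 0.654), and Mb was called in litter A only. The targets were short, with a median of 2166 exon bases against 4100 for the members. With the length trend removed their median log2 fold change was 0.02, and no gene of the 4 lists was called by DESeq2.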

How the data were processed

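RNA of 10 mouse hearts was sequenced from libraries depleted of ribosomal RNA with a stranded kit. Per the methods of the study, reads were aligned to mm10 with STAR and counted over exons with HOMER, 1 transcript per gene. Trim Galore was used there on experiments whose reads held adaptor sequence, and whether this was one is not stated. The deposited values are estimated counts in steps of 0.5, with no scaling by the authors. Beside them the deposited table gives transcript coordinates and, as the other unit, the length of the exons in bases, and 0 columns of samples were left out. The submitters' processing notes name STAR and HOMER without versions.

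Counts were rounded to whole numbers, and genes with fewer than 10 counts over the 10 libraries were left out (17746 of 24537 stayed, with all 10 members). DESeq2 1.42.0 (R 4.3.3) tested genotype by its Wald test without covariates (the study names DESeq2 but no covariates). Its p-values were adjusted by Benjamini-Hochberg over the genes that its default independent filtering by mean count kept, 9489 of 17746 for genotype. edgeR 4.0.16 was the other test. For single values an exact permutation test, two-sided, took every arrangement of 5 mice against 5. The scripts were tested on simulated data. The length trend was a spline with 5 degrees of freedom on log exon length, fitted to each library. Alternatives were TMM, 2 other count filters, sex and litter as covariates, each litter or sex alone, each mouse left out, and, chosen after seeing the data, the length trend with both covariates.

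Named were all members, the genes called on each related list (or else the 3 with the lowest p), and the 3 genes most like each PGC-1 coactivator over the libraries, except items that are not reported here. Members and lists were chosen with earlier results of these data known. Intervals are for the estimated log fold change and were built from its standard error (SE) over these mice. They do not give the spread between single mice, which the SDs describe.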

Additional observations from a re-analysis of the deposited data

Results flagged for a closer look

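Gabpa in iSOD2 7 stood far from the other iSOD2 hearts, at 1649 normalized counts, where the other 4 lay between 1513 and 1546. The gap was 0.760 of the whole range of the group, above Dixon's critical value for 5 samples. It was the single such case in 22 groups examined, and chance gives about 1.1.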

How the results depend on the processing

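Leaving out 1 mouse gave 1 to 3 called members, and Pprc1 was among them each time. The count of 2 became 1 (Pprc1) with the length trend removed, with sex as a covariate, and with the trend and both covariates together, which was chosen after seeing the data. It became 0 with edgeR and within litter A, litter B, males or females alone, strata of 4 to 6 mice. In litter A and in males Pprc1 was given no adjusted p and so could not be called (DESeq2 unadjusted p = 0.00994 and 0.00068). The count was 3, with Ppargc1b added, under TMM and among genes averaging at least 50 counts. With litter alone or sex and litter as covariates it was 2, Pprc1 and Ppargc1b. Calls over all genes numbered 281, 123 without the length trend, 0 by edgeR, and 166 to 495 without 1 mouse. Ppargc1a reversed to -0.0358 in litter A and -0.0755 in females, and ran from -0.0144 (without iSOD2 5) to 0.0966 without 1 mouse. Esrrb reversed to 0.0425 in males and ran from -0.133 to 0.00189 (without iSOD2 9) without 1 mouse, and Polrmt reversed to 0.0174 in females. None of these 3 genes was called in any setting. The ratio of Ppargc1b to Ppargc1a ran from -0.41 to -0.29 without 1 mouse, with exact permutation p from 0.0159 to 0.0476. Counts of 0 members for sex, litter and interaction were 0 in every alternative run. The causes of these changes were not tested. The labels match no single mice between the genotypes, so no paired analysis was made, but litter was used as a block, as given above.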

Other observations

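Transcripts whose log2 normalized counts followed those of the coactivators most closely over the 10 libraries, among 12151 genes, are given as a description, since the libraries share genotype, litter and length trend. For Ppargc1a they were Ddb2 (Pearson r = 0.90), D830032E09Rik (0.90) and Agtpbp1 (0.89). For Ppargc1b they were Usp28 (0.97), Ppp1r12b (0.96) and Asb15 (0.96), and for Pprc1 they included 2310022B05Rik (0.98) and Spred2 (0.97). With the length trend removed D830032E09Rik, 4931406H21Rik and Stx7 came first for Ppargc1a, Usp28, Supt3 and Srfbp1 for Ppargc1b, and 2310022B05Rik, Spred2 and Eif4ebp2 for Pprc1. Pprc1 and Ppargc1b varied most among the members over the 10 hearts, with coefficients of variation of 18.3% and 16.4%, where genes of like level had medians of 8.71% and 6.89%.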
